A study of Mus musculus with 4 samples.

Results

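The 10 genes described here encode the enzymes that make serine from a glycolytic intermediate and pass its carbon on through folate and methionine. They are Phgdh, Psat1, Psph, Shmt1, Shmt2, Mthfd1, Mthfd2, Mthfd1l, Aldh1l2 and Mat2a, chosen by symbol, and all 10 were found among the 16051 genes of the deposited table. The cells were 3T3-L1, a mouse fibroblast line derived from Swiss embryos that can be turned into adipocytes with a hormone mix. After differentiation they received risperidone, an atypical antipsychotic, at 100 μM or its vehicle DMSO for 48 h, in 2 libraries per treatment with RNA of 3 cultures pooled in each. The sample labels call the control untreated. Since cultures were pooled and nothing ties the replicate numbers to separate experiments, the spread between libraries may be technical, and differences among single cultures are not seen.

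Serine is built from 3-phosphoglycerate by PHGDH, PSAT1 and PSPH in turn. Serine hydroxymethyltransferase then moves a carbon from serine to tetrahydrofolate, and the carbon can travel through mitochondria, leave as formate and be used in the cytosol for nucleotides and methyl groups. MAT2A, at the far end, joins methionine to ATP to give S-adenosylmethionine, the methyl donor of the cell. The mitochondrial arm is also a source of NADPH, and several of the genes are known targets of the stress factor ATF4.

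The libraries held between 15883712 and 16374119 estimated counts. Of 11 adipocyte markers, 6 did not exceed 20 counts in any library. Adipoq had at most 1 count, whereas Pparg had 345 to 388, Lipe 137 to 352 and Lpl 11967 to 15569, so the adipocyte markers were in part near 0 and in part abundant. Fabp4, a fatty acid carrier of fat cells, had 1079 and 1360 counts with DMSO and 492 and 586 with risperidone, and Lipe (-1.12) and Lpl (-0.24) were also called lower, while Pparg (0.12) and Cd36 (0.27) were not called (edgeR adjusted p = 0.194 and 0.33). Of the preadipocyte markers, Dlk1 (1.52), Col1a1 (0.99) and Thy1 (1.05) were called higher on the log2 scale by edgeR, Col1a2 lower (-0.16) and Pdgfra not called (-0.03). Ly6a was also called higher, but its 26 and 24 counts with DMSO stood against 34 and 74 with risperidone, the 74 in replicate 2. The part of these markers in the results was not tested. Risperidone replicate 2 stood apart: 12 of 15 kidney markers, among them Kap, Umod and Slc34a1, exceeded each other library more than 5 times over there, and the summed level of the list was 217 CPM against 4.38 to 6.41 CPM elsewhere. Aqp2 and Nphs1, from the same list, had 3 and 2 counts in that library and 0 in the others. Of 5 liver genes, 3 showed the same excess, with a summed level of 17.4 CPM against at most 0.211 CPM. Retina markers, checked because the labels' extraction text names that tissue, summed to 3.25 to 4.28 CPM in all 4 libraries. Each enzyme and list is therefore also given without risperidone replicate 2, and the part of these transcripts in the results was not tested.

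RefSeq promoters were matched for 9 of the 10 genes on the GRCm38.p6 build, with a pair of start sites for Psat1 and none for Aldh1l2. The 250 bases before the start site are shown for 3 genes, since Phgdh and Psat1, consecutive steps, moved apart, and Mat2a fell as the most abundant member. For Psat1 the upstream start site was taken. All 3 lie 5′ to 3′ on the strand of the gene, and capitals mark a CCAAT box (CCAAT on either strand) or a GC box (GGGCGG on either strand). The window of Phgdh is chr3:98339970-98340219 (- strand), that of Psat1 is chr19:15925060-15925309 (- strand) and that of Mat2a is chr6:72439557-72439806 (- strand).
Phgdh: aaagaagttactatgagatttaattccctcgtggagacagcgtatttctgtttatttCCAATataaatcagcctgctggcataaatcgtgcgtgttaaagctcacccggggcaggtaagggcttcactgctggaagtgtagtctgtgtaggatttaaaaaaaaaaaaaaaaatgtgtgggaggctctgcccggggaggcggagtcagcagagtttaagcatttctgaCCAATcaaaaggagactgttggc
Psat1: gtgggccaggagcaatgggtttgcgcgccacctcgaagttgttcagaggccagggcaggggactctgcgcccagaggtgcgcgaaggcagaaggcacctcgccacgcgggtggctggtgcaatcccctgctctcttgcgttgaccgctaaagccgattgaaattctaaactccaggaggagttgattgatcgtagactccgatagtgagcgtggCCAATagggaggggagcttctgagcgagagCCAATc
Mat2a: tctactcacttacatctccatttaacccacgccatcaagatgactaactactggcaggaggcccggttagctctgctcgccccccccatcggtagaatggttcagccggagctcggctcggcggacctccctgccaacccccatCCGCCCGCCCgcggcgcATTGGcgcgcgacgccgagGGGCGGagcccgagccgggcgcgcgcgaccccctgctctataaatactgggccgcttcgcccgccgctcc

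In Phgdh the CCAAT boxes began at -193 and -23 relative to the start site, and in Psat1 at -36 and -6. Mat2a had a reverse CCAAT box at -89 and GC boxes at -106, -102 and -70, the first pair of which overlap, whereas Mthfd1l had no CCAAT box and a GC box at -24. A CCAAT box was present in 7 of the 9 genes, against 33.8% of all 32851 RefSeq windows of this length, and a GC box in 6 of the 9, against 32.7%. Both windows of Psat1 were searched, and its GC box, at -11, lies before the downstream start site, not in the window shown, so that with the upstream window alone the GC box was in 1 gene fewer. The C/EBP-ATF response element (TGATGNAAN, both strands) was in 0 of the 9 genes and 3.44% of all windows. The E-box (CACGTG) was in 0 of 9 against 6.02%, and the cAMP response element (TGACGTCA) in 0 of 9 against 1.55%. These are matches of letters in a short window only. CCAAT boxes were found in genes called higher by edgeR and in genes called lower.

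To ask how risperidone changed the pathway, the rounded counts were compared with edgeR's quasi-likelihood test, two-sided, over the 10243 genes that averaged 1 FPKM or more, with Benjamini-Hochberg adjustment. All 10 enzymes passed this limit. At an adjusted p under 0.05, 6 of the 10 were called, against 64.3% of all tested genes, so the share of called members was near the background. Of these, 2 were higher, Phgdh and Mthfd1 (both at -0.04 on TPM), against 32.1% of all tested genes, and 4 were lower, Mat2a, Mthfd1l, Psat1 and Aldh1l2, against 32.2%. Fold changes are given as log2 of risperidone over DMSO, ± the standard error. The median was -0.16 for the members and 0.00 for all tested genes. FPKM of the treatments did not overlap for 9 of the 10 members, against 82.2% of all tested genes. In bulk RNA, fewer cells of a type and less RNA per cell cannot be told apart.

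FPKM and TPM are not on the same footing as these fold changes. The FPKM summed to 482767 and 487207 in the DMSO libraries and to 546060 and 525448 in the risperidone libraries, and on the TPM scale, where each library sums to the same total, the median of all tested genes lay at -0.22. Relative to that median, the TPM changes of the members were close to those of edgeR, with 0.19 for Phgdh, 0.18 for Mthfd1, -0.31 for Psat1, -0.60 for Mthfd1l and -0.63 for Mat2a. Without the shift removed, Phgdh and Mthfd1 were at -0.04 each, so their rise holds relative to the other genes and not as a share of the transcriptome.

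**Figure D1:**
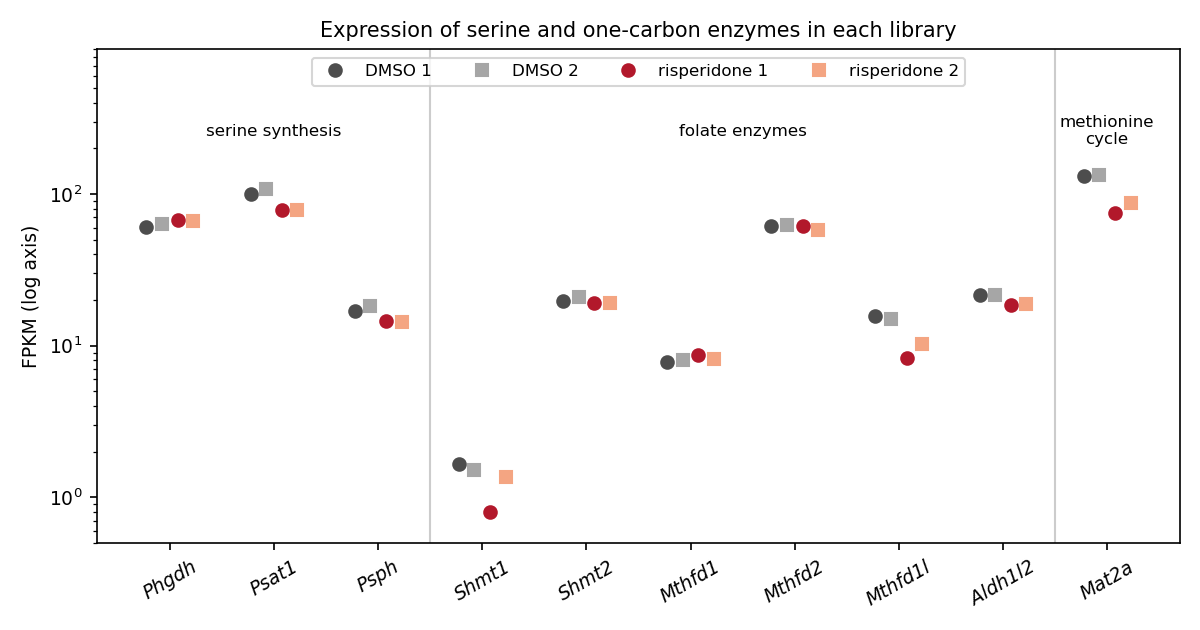
FPKM (log axis) of each of the 10 enzymes in each of the 4 libraries, with circles for replicate 1 and squares for replicate 2. Mat2a, Psat1, Mthfd1l, Psph, Shmt1, Shmt2 and Aldh1l2 lie lower in both risperidone libraries than in both DMSO libraries. Phgdh and Mthfd1 lie higher, and Mthfd2 overlaps. Shmt1, at 0.80 to 1.65 FPKM, is the least abundant.

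The enzymes of serine synthesis did not move together. Phgdh (NCBI Gene 236539, chr3:98313171-98339969), which oxidises 3-phosphoglycerate in the committed step, had 60.38 and 63.29 FPKM in the DMSO libraries and 67.15 and 66.08 FPKM with risperidone. Both risperidone libraries were above both DMSO libraries. On the count scale Phgdh rose 1.15-fold (0.21 ± 0.0488 on the log2 scale, edgeR adjusted p = 0.0035), though it was at -0.04 on TPM. The call was lost without DMSO replicate 1 (0.17, adjusted p = 0.106 from edgeR) and with library size as the only scaling (0.11, adjusted p = 0.0661 from edgeR), and it was kept without risperidone replicate 2 (0.22).

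Psat1 (NCBI Gene 107272, chr19:15905123-15925059), the aminotransferase that puts nitrogen on the intermediate, went the other way. It had 99.77 and 107.19 FPKM with DMSO and 78.74 and 78.28 FPKM with risperidone, a clear gap between treatments that was larger than the spread within either. Psat1 fell to 0.812 of its DMSO level (log2 -0.30 ± 0.0493, edgeR adjusted p = 0.000291), and the value stayed between -0.35 and -0.25 with any 1 library left out, at -0.29 without risperidone replicate 2. Every other scaling and tool kept Psat1 lower at an adjusted p under 0.05, from -0.54 on TPM to -0.23 with length and GC offsets. Relative to the median of all genes in each of these settings, the values were -0.31 and -0.34.

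Psph (NCBI Gene 100678, chr5:129765558-129787443) encodes the phosphatase that releases serine. It had 16.91 and 18.34 FPKM with DMSO and 14.54 and 14.29 FPKM with risperidone. The treatments did not overlap, but the difference of -0.19 ± 0.079 on the log2 scale missed the threshold in the count test (edgeR adjusted p = 0.0541). It passed in 5 of the alternatives, among them library size scaling (-0.28, adjusted p = 0.00879 from edgeR) and TPM (-0.42), but not without risperidone replicate 2 (-0.17, edgeR adjusted p = 0.135).

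Because a ratio within a library does not depend on how libraries are scaled, the balance between the opening enzymes was also compared directly. The ratio of Phgdh to Psat1 in FPKM was 0.605 and 0.59 in the DMSO libraries and 0.853 and 0.844 in the risperidone libraries. The log2 ratio was 0.51 higher with risperidone, against an SD of 0.0252 and 0.0104 between replicates, and equally 0.51 without risperidone replicate 2. With 2 libraries against 2, an exact permutation test, two-sided, gives 0.333 at the least, and it gave 0.333 here. This ratio was chosen after the values were seen.

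**Figure D2:**
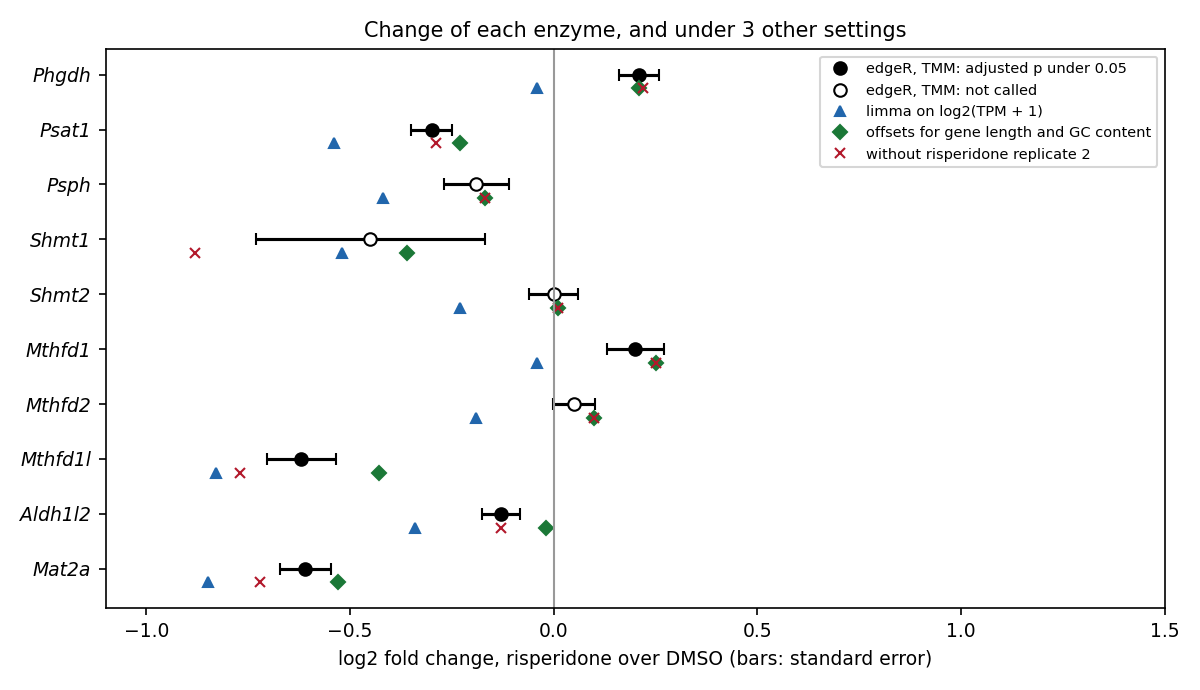
Log2 fold change (risperidone over DMSO, horizontal axis) of each enzyme from edgeR with its standard error, filled where the adjusted p was under 0.05, and below it the values on TPM, with length and GC offsets, and without risperidone replicate 2. Mat2a, Mthfd1l, Psat1, Psph, Shmt1 and Aldh1l2 are below 0 in every setting shown, while Phgdh and Mthfd1 cross to -0.04 on TPM.

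Of the folate enzymes, those of the mitochondrial arm were abundant and the cytosolic serine hydroxymethyltransferase was scarce. Shmt2 (NCBI Gene 108037, chr10:127517123-127522444), the mitochondrial form, had 19.65 and 20.91 FPKM with DMSO and 19.06 and 18.98 FPKM with risperidone. On the log2 scale the difference was 0.00 ± 0.0605 (edgeR adjusted p = 0.964). The sign followed the scaling, with -0.09 by library size and -0.23 (adjusted p = 0.0115 from limma) on TPM, and the value was 0.01 without risperidone replicate 2.

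Shmt1 (NCBI Gene 20425, chr11:60788897-60811265), its cytosolic counterpart, had only 52 and 46 counts with DMSO and 25 and 42 with risperidone. In FPKM these were 1.65 and 1.5 against 0.80 and 1.36, and the second risperidone library lay close to the DMSO libraries. The log2 difference of -0.45 ± 0.282 (edgeR adjusted p = 0.182) was not called, although on TPM it passed narrowly (-0.52, limma adjusted p = 0.0487). Without risperidone replicate 2, which holds the kidney-type transcripts, Shmt1 was at -0.88 (adjusted p = 0.0227 from edgeR), and without risperidone replicate 1 at -0.12. Its value with risperidone is thus decided by single libraries.

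Mthfd2 (NCBI Gene 17768, chr6:83305704-83326011), a mitochondrial dehydrogenase and cyclohydrolase that is common in dividing cells, was the most abundant folate enzyme. Its values were 61.2 and 62.14 FPKM with DMSO and 61.47 and 57.61 FPKM with risperidone. The treatments overlapped, and the log2 difference was 0.05 ± 0.0513 (edgeR adjusted p = 0.45), or -0.19 on TPM (limma adjusted p = 0.00748) and 0.10 without risperidone replicate 2 (edgeR adjusted p = 0.114).

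The largest change in the mitochondrial arm was that of Mthfd1l (NCBI Gene 270685, chr10:3972892-4167081), the ligase that frees formate for export to the cytosol. It had 15.63 and 14.89 FPKM with DMSO and 8.33 and 10.28 FPKM with risperidone. Both risperidone libraries were well below both DMSO libraries, and they differed from each other more than the DMSO libraries did. Mthfd1l fell to 0.65 of its DMSO level (log2 -0.62 ± 0.085, edgeR adjusted p = 7.93e-05). Without risperidone replicate 2 the value was -0.77, and without risperidone replicate 1 it was -0.48. With length and GC offsets it was -0.43, past the threshold, or -0.54 relative to the median of all genes in that setting.

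Aldh1l2 (NCBI Gene 216188, chr10:83487447-83534146), a mitochondrial dehydrogenase that burns formyl groups to CO2 and yields NADPH, had 21.7 and 21.46 FPKM with DMSO and 18.63 and 18.74 FPKM with risperidone. Its replicates were close together and the treatments did not overlap. The log2 change was small, -0.13 ± 0.0463 (edgeR adjusted p = 0.0306). That call was lost with DESeq2 (adjusted p = 0.144) and with the replicate number as a block (edgeR adjusted p = 0.0673). With length and GC offsets Aldh1l2 was at -0.02 (adjusted p = 0.802 from edgeR), but that setting moved the median of all genes to 0.11, and relative to it the value was -0.13. Leaving out DMSO replicate 1, DMSO replicate 2 or risperidone replicate 1 also ended the call, with adjusted p of 0.277, 0.188 and 0.0557 from edgeR, while without risperidone replicate 2 it was kept (-0.13, adjusted p = 0.0448).

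In the cytosol, Mthfd1 (NCBI Gene 108156, chr12:76254406-76319820), which puts formate back on folate and passes its carbon on, had 7.78 and 7.99 FPKM with DMSO and 8.73 and 8.18 FPKM with risperidone. Both risperidone libraries were above both DMSO libraries, replicate 2 by little. Mthfd1 rose by 0.20 ± 0.0696 on the log2 scale (edgeR adjusted p = 0.0284), though it was at -0.04 on TPM. It was at 0.25 and still called without risperidone replicate 2. The call was lost in 10 alternatives that set no minimum fold, including DESeq2 (adjusted p = 0.214) and the removal of DMSO replicate 1, DMSO replicate 2 or risperidone replicate 1 (adjusted p of 0.168, 0.1 and 0.176 from edgeR).

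Between the compartments, the ratio of Mthfd1l to Mthfd1 was 2.01 and 1.86 in the DMSO libraries and 0.954 and 1.26 in the risperidone libraries. The log2 ratio was 0.82 lower with risperidone, a difference of -0.82 against SDs of 0.0766 and 0.281. For Mthfd2 over Mthfd1 the ratio was 7.87 and 7.78 with DMSO and 7.04 in both risperidone libraries, a difference of -0.15 on the log2 scale. Shmt2 over Shmt1 was 11.9 and 13.9 with DMSO and 23.8 and 14 with risperidone, where only replicate 1 stood off, and the difference of 0.50 was smaller than the SD of 0.546 between the risperidone libraries. The differences were -1.02, -0.15 and 0.89 in turn without risperidone replicate 2. Each of these 3 comparisons gave 0.333 in the exact permutation test, the smallest value that the design allows.

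**Figure D3:**
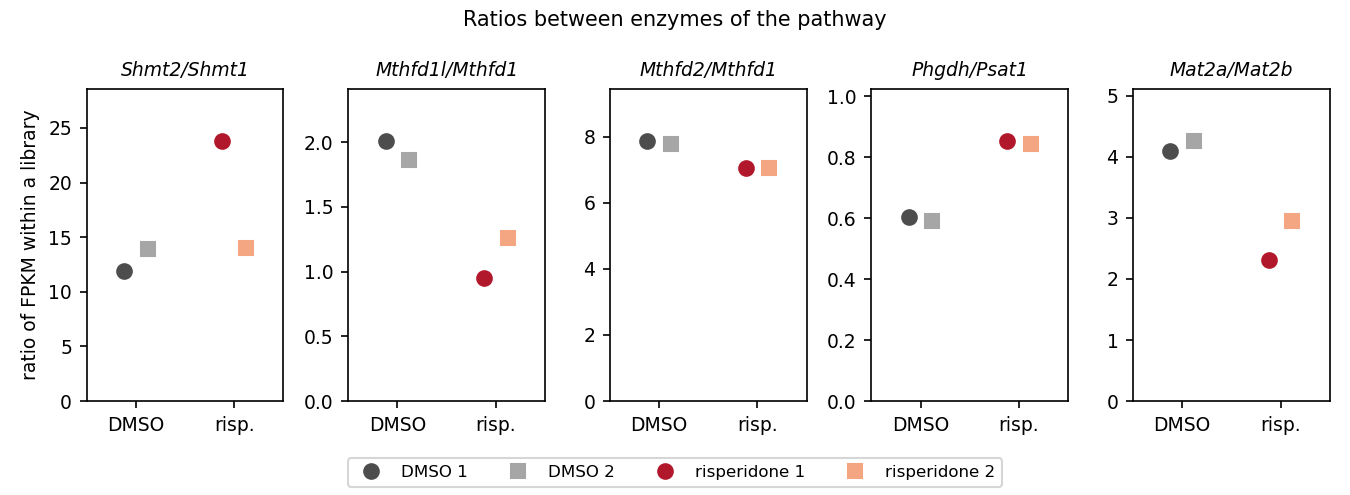
Ratio of FPKM between a pair of enzymes within each library (linear axes from 0), for DMSO and risperidone, with circles for replicate 1 and squares for replicate 2. Phgdh over Psat1 is higher in both risperidone libraries (0.853 and 0.844 against 0.605 and 0.59), Mthfd1l over Mthfd1 and Mat2a over Mat2b are lower, and Shmt2 over Shmt1 is high in risperidone replicate 1 only.

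Mat2a (NCBI Gene 232087, chr6:72432796-72439556), the catalytic subunit of the enzyme that makes S-adenosylmethionine outside the liver, was the most abundant member in DMSO. It had 131.75 and 133.49 FPKM with DMSO and 75.01 and 87.21 FPKM with risperidone. All risperidone values were far below the DMSO values, and the risperidone libraries differed from each other by more than the DMSO libraries. Mat2a fell to 0.654 of its DMSO level (log2 -0.61 ± 0.0627, edgeR adjusted p = 9.6e-06). The value was -0.72 without risperidone replicate 2, -0.51 without risperidone replicate 1 and -0.85 on TPM, and the gene was called in every alternative that set no minimum fold. Mat2b, the regulatory subunit, had 32.2 and 31.31 FPKM with DMSO and 32.41 and 29.55 with risperidone, which overlapped, and a log2 difference of 0.05 (edgeR adjusted p = 0.586). The ratio of Mat2a to Mat2b, also chosen after the values were seen, went from 4.09 and 4.26 to 2.31 and 2.95, a log2 difference of -0.68, or -0.85 without risperidone replicate 2.

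In level, measured in FPKM and thus per length, the order with DMSO was Mat2a, Psat1, Phgdh, Mthfd2, Aldh1l2, Shmt2, Psph, Mthfd1l, Mthfd1 and Shmt1. Only Phgdh and Mthfd2 had overlapping ranges among the neighbours of that order. With risperidone the mean of Mat2a was 81.11 FPKM and that of Psat1 78.51 FPKM, with overlapping ranges, and Mthfd1l, at 9.305 FPKM, overlapped with Mthfd1, at 8.455 FPKM. Aldh1l2 and Shmt2 changed places, at 18.68 and 19.02 FPKM. Summed in TPM, the share of the transcriptome, the 10 members made up 904 and 926 TPM with DMSO and 645 and 687 TPM with risperidone. Such sums carry the shift of all tested genes, whose median was -0.22 on the log2 TPM scale. Mat2a alone went from 272.9 and 273.99 TPM to 137.37 and 165.97 TPM. The serine synthesis enzymes accounted for 367 and 388 TPM against 294 and 302 TPM. The 4 mitochondrial folate enzymes had 245 TPM in both DMSO libraries against 197 and 201 TPM, and the 2 cytosolic ones 19.5 TPM in both against 17.4 and 18.1 TPM. Among the mitochondrial ones edgeR called Mthfd1l (-0.62) and Aldh1l2 (-0.13) lower, and did not call Shmt2 (0.00) or Mthfd2 (0.05).

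The members' counts lay between 25 and 5757, and the authors' counting can split reads between similar genes. All 40 of the members' counts were whole numbers, as were 91.2% to 91.7% of the counts of all genes in each library. On the RefSeq annotation the loci of Psph, Shmt2, Mthfd1, Mthfd1l, Aldh1l2 and Mat2a overlap other genes, such as Cct6a at Psph, Ndufa4l2 at Shmt2 and Ggcx and Particl at Mat2a. The loci were compared over their whole spans, introns included, and shared exons were not looked for. The strand setting of the libraries is not given in the sources used here. Reads from any exon bases shared with an overlapping gene thus cannot be told apart.

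The neighbouring pathways were described by lists of genes written from general knowledge, and their counts are to be read against the 64.3% of all tested genes that were called, 32.1% higher and 32.2% lower. Counts on TPM carry the shift of all genes given above. In the folate cycle and folate transport list, 14 of 17 genes were tested, 3 were higher and 6 lower, and the median log2 fold change was -0.09 against 0.00 for all tested genes. On TPM 1 was higher and 7 lower with a median of -0.32, and without risperidone replicate 2 the counts were again 3 and 6. The reduced folate carrier Slc19a1 (0.55) and Mthfd2l, the close relative of Mthfd2 (0.54), rose, as did the mitochondrial serine carrier Sfxn1 (0.33). The proton-coupled folate transporter Slc46a1 (-0.83) and the thymidylate synthase Tyms (-0.56) fell. Slc25a32, which carries folate into mitochondria, fell by less (-0.19, adjusted p = 0.0295 from edgeR).

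Mthfd2l had 4.73 and 5.91 FPKM with DMSO and 6.96 and 7.48 with risperidone, far below Mthfd2 in level. Aldh1l1, the cytosolic relative of Aldh1l2, was below the limit for testing, with 4 counts in each of the first 3 libraries and 77 in risperidone replicate 2.

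Of the methionine cycle, salvage and transsulfuration list, 11 of 16 genes were tested, with 3 higher, 1 lower and a median of 0.05. The balance turned with the scaling, to 1 higher and 3 lower by library size (median -0.05) and to 1 higher and 7 lower on TPM (median -0.18). Ahcyl1, a relative of adenosylhomocysteinase, rose (0.84), and Nnmt, which uses S-adenosylmethionine to methylate nicotinamide, fell (-0.75). Mtap, of the methionine salvage pathway, rose slightly (0.17), or -0.07 on TPM. The counts were 3 and 3 without risperidone replicate 2.

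Among genes of glycine cleavage and serine or glycine breakdown, 5 of 9 were tested, with 2 higher, 2 lower and a median of 0.07, or -0.17 on TPM. The serine racemase Srr fell (-0.61) and so did Gcat, an enzyme of threonine and glycine breakdown (-0.48), while the aminomethyltransferase Amt of the glycine cleavage system rose (0.43), a call that was lost by library size and on TPM, where 0 genes of the list were higher. Without risperidone replicate 2 the call of Gcat was lost (-0.41, edgeR adjusted p = 0.105), which left 2 higher and 1 lower. Around 3-phosphoglycerate, the starting point of serine synthesis, Pgam1 (-0.46) and Eno1 (-0.22), which act downstream of it, fell and Pgk1, which makes it, rose (0.27, or 0.02 on TPM), while Gapdh was at -0.01 (adjusted p = 0.85 from edgeR), or -0.26 on TPM. The 4 genes gave 1 higher and 2 lower, also without risperidone replicate 2, and a median of -0.12, but 0 higher and 3 lower on TPM with a median of -0.36.

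Of 13 genes of purine synthesis, a main user of formyl-folate, all were tested, and 11 were called, 9 higher and 2 lower, against the background of 32.1% and 32.2%. The counts were also 9 and 2 without risperidone replicate 2 and 8 and 3 on TPM, and the median log2 fold change was 0.41, or 0.19 on TPM and 0.59 with length and GC offsets. With those offsets the median of all tested genes was 0.11. Adssl1 (0.95), the phosphoribosyl pyrophosphate synthetase Prps2 (0.68) and the IMP dehydrogenase Impdh2 (0.61) changed most. Of the folate-using steps, Atic rose (0.45), with 33.8 and 35.83 FPKM under DMSO and 43.58 and 45.19 under risperidone. Gart fell (-0.21, edgeR adjusted p = 0.0113), with 15.59 and 16.05 FPKM under DMSO and 12.33 and 13.19 under risperidone. The other gene that fell was Pfas (-0.21). Atic, Gart and Pfas were named after their values were seen.

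ATF4 and MYC are transcription factors known to act on these enzymes. Of 21 genes in the list of Atf4 and its other targets, 18 were tested, 10 were higher and 7 lower, and the median was 0.17. By library size 7 were higher and 7 lower, on TPM 5 were higher and 8 lower (median -0.08), and without risperidone replicate 2 the counts were 10 and 7. Atf4 itself had 82.46 and 83.16 FPKM with DMSO and 98.76 and 83.77 FPKM with risperidone, where replicate 1 was the one that stood out. Atf4 rose by 0.27 on the log2 scale (edgeR adjusted p = 0.00485), but was at -0.01 on TPM. The stress factor Ddit3 rose from 107.95 and 114.25 FPKM to 503.81 and 382.69 FPKM, while the mTOR inhibitor Ddit4 (-1.93) and the cystine carrier Slc7a11 (-1.79) fell. Of Myc and its partners, 4 of 5 were tested, with 2 higher and 2 lower, also without risperidone replicate 2. Myc (1.47) and the repressor Mnt (0.62) rose and Mxd4, another repressor of the network, fell (-0.78).

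**Figure D4:**
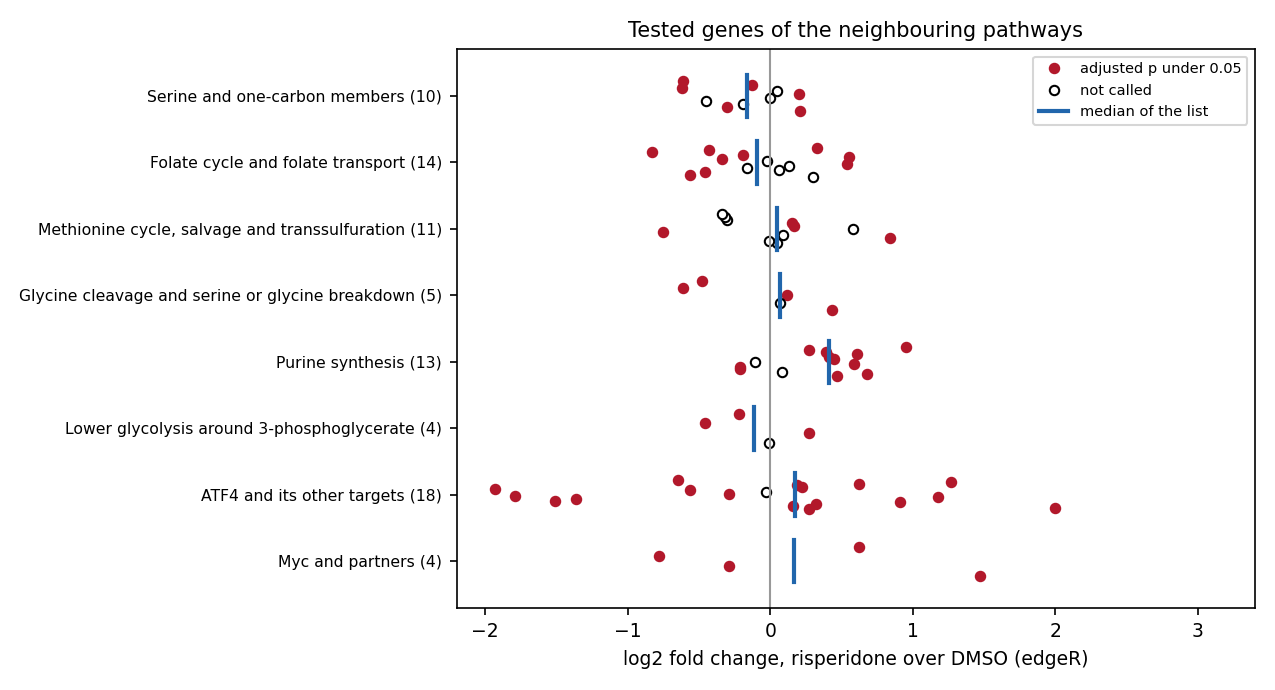
Log2 fold change from edgeR (risperidone over DMSO, horizontal axis) of each tested gene in the members and in 7 lists of neighbouring pathways, with the number of tested genes in brackets, red where the adjusted p was under 0.05 and open otherwise, and the median as a blue bar. The purine synthesis genes lie mostly to the right, with a median of 0.41, while the members have a median of -0.16 and lie on both sides of 0.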

How the data were processed

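mRNA from differentiated 3T3-L1 cells was sequenced by the authors in 2 libraries each for DMSO and risperidone, groups taken from the sample titles. Reads were cleaned by the authors, and the submitters' processing notes name Bowtie2, RSEM, DESeq2 and the GRCm38.p6 build, with no version or annotation. The deposited estimated counts (expected counts) are not normalized. The deposited FPKM and TPM were calculated by the authors. Each library held 15883712 to 16374119 counts, and a count of 0 allows up to 3 counts, or 0.183 to 0.189 CPM, for counting error only.

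Counts were rounded and tested with edgeR 4.0.16 (R 4.3.3, quasi-likelihood F-test, TMM, Benjamini-Hochberg) over genes averaging 1 FPKM or more. The standard error was taken as the log2 change (unsigned) over the root of its F statistic. Alternatives used limma 3.58.1, DESeq2 1.42.0, other filters and scalings, left-out libraries, a replicate term and, added after the data were seen, length and GC offsets smoothed with mgcv 1.9.3 from GENCODE transcripts (99.1% of tested genes), a crossed replicate term, the TPM scale and the replicate term for the lists of neighbouring pathways, and the Phgdh/Psat1 and Mat2a/Mat2b ratios. The tools were tested on simulated data in which 200 of 10243 genes changed by 1 on the log2 scale. There edgeR and limma recovered 100% and DESeq2 95%, with 7, 10 and 1 false calls in turn. Smaller changes, such as those of the members, and changes in genes of low count were not simulated. Permutation tests used SciPy 1.17.1.

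The members and lists were chosen with earlier results of these data known. Named genes were the 10 members, up to 3 called genes of each list with the largest changes, close relatives of a member and selected markers. Some genes named by this rule are not reported here. Positions and promoters are RefSeq's for GRCm38.p6. The authors' mean columns were not used.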

Additional observations from a re-analysis of the deposited data

How the results depend on the processing

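The count of 2 members higher and 4 lower with risperidone changed with the settings as follows. Members higher numbered 1 with no filter, over genes averaging 5 FPKM or more and with DESeq2, and 0 with library size as the only scaling and with limma on log2(FPKM + 1), log2(FPKM + 0.1) and log2(TPM + 1). Members lower numbered 8 with limma on log2(TPM + 1). A minimum log2 change of 1 in size left 0 in either direction. With single libraries left out, where the lone library of a treatment was assumed to vary like the others, 0 to 2 members were higher (0 without DMSO replicate 1) and 3 to 5 lower. With the replicate number as a block, 2 were higher and 3 lower, and over the lists of neighbouring pathways 51 genes were called in place of 52. Deviations of same-numbered libraries correlated at -0.105 across genes, so nothing shows that the numbers pair the samples, and with the numbers crossed 4 members were lower and 6993 of all tested genes were called in place of 6590. On TPM, where the median of all genes was -0.22, Phgdh (-0.04) and Mthfd1 (-0.04) were below 0, but at 0.19 and 0.18 relative to that median. The sign also turned for members that were not called: Shmt2 over genes averaging 5 FPKM or more (-0.02), library size (-0.09), limma on FPKM with either pseudocount (-0.09), TPM (-0.23) and left-out libraries (-0.04 to 0.05), and Mthfd2 with library size (-0.05), limma on FPKM with either pseudocount (-0.05), TPM (-0.19) and left-out libraries (-0.01 to 0.10). Psat1, Mthfd1l and Mat2a were lower and called in every alternative without a minimum fold. The share of higher genes among all calls was 49.9% with edgeR and TMM, 37.9% with edgeR and library size, 22.5% with limma on log2(TPM + 1), where tool and scale changed together, and 63.7% with edgeR and length and GC offsets, where the median of all genes was 0.11. For the ratios, left-out libraries gave 0.12 to 0.89 for Shmt2/Shmt1, -1.02 to -0.62 for Mthfd1l/Mthfd1 and -0.16 to -0.14 for Mthfd2/Mthfd1. Mthfd1 was not called in 10 alternatives and Aldh1l2 in 7 of those without a minimum fold (with the offsets Aldh1l2 was at -0.13 relative to the median of all genes), and the other causes were not tested. Shmt1 had the fewest counts of the members, with 25 in risperidone replicate 1 and 42 in replicate 2. The parts of depth and of the spread between these libraries in its result were not tested.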

Other observations

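Several genes of glycine and folate handling that lay under the limit of 1 FPKM were close to absent in 3 libraries and present in risperidone replicate 2. They were named after their values were seen. Gldc, the decarboxylase of the glycine cleavage system, had 2 and 2 counts with DMSO and 0 and 32 with risperidone. Folr1, a folate receptor, had 2 and 2 counts with DMSO, 1 in risperidone replicate 1 and 28 in replicate 2. Bhmt2, a methyltransferase that remethylates homocysteine, had 0 and 1 counts with DMSO and 0 and 27 with risperidone. Cbs, which opens the transsulfuration route, had 1 and 2 counts with DMSO and 0 and 15 with risperidone. Cth, the next enzyme of that route, was tested and had 50 and 70 counts with DMSO and 62 and 106 with risperidone, a log2 fold change of 0.58 (adjusted p = 0.0872 from edgeR) that was 0.14 without risperidone replicate 2. The kidney markers were high in the same library, and their part in these values was not tested.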
